A study of Rattus norvegicus with 44 samples.

Results

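The enzymes described here attach glucuronic acid, glutathione or sulfate to small molecules: the UDP-glucuronosyltransferases (UGT), the soluble glutathione S-transferases (GST) and the cytosolic sulfotransferases (SULT). Members were all entries of the deposited kidney table whose gene symbol starts with Ugt and a digit, with Gst, a class letter (a, k, m, o, p, t or z) and a digit, or with Sult and a digit, which took 42 of 32883 entries, 7 UGT, 23 GST and 12 SULT. Symbols alone decided which entries were members, but the families themselves were chosen with earlier results of these data known. The kidneys came from 44 obese male ZSF1 rats, which carry the leptin receptor alleles fa and cp, develop obesity, diabetes and progressive kidney disease, and here also bore a telemetry implant. Treatment in feed started at 22 weeks of age and lasted 6 months. Enalapril, an inhibitor of angiotensin-converting enzyme, was given at 3 mg/kg/day to 9 animals. Compound 1, a stimulator of soluble guanylate cyclase, was given to 12 animals at 1 mg/kg/day and later 3 mg/kg/day. The combination group of 12 animals had both drugs in the feed, Enalapril as above and Compound 1 held at its starting 1 mg/kg/day, and the 11 Vehicle animals had neither. Compound 1 was thus not dose-matched between its 2 groups, a piece of kidney was sampled rather than sorted cells, and no lean animals are part of the comparison.

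Conjugation makes drugs, hormones, bile pigments and reactive by-products of metabolism more soluble, so that transporters can move them into bile or urine. UGT enzymes sit in the endoplasmic reticulum and use UDP-glucuronic acid, SULT enzymes use the sulfate donor PAPS in the cytosol, and GST enzymes use glutathione, whose conjugates the kidney trims to mercapturic acids. In the kidney the proximal tubule is the best known site of this chemistry, and alpha-class GST released into urine is used as a marker of injury to that segment. Mu-class and pi-class GST are known from more distal parts of the nephron.

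Levels are FPKM, fragments per kilobase of transcript and scaled to the mapped fragments of the library, which correct for gene length and can be compared between genes. Of the 42 members, 29 had an FPKM above 1 in at least 9 animals and were tested with 13482 entries in all (4 UGT, 18 GST and 7 SULT), and 13 did not. Fold changes are differences of mean log2(FPKM + 0.1) from limma, with p-values adjusted over all 13482 entries. A member rose or fell where its adjusted p was under 0.05, and it was called a DEG where the fold change was also above 1.5 or under 0.66. The total reads of a library are not known from FPKM, and the relative depth read from ratios of low FPKM ran from 0.656 to 1.38 of the median library, where the group medians were 1.13 (Enalapril), 1.0 (Compound 1), 1.03 (combination) and 0.887 (Vehicle). Mitochondrially encoded transcripts made up 33.0 ± 5.94% of FPKM with Enalapril, 30.5 ± 3.99% with Compound 1, 32.3 ± 4.88% with the combination and 27.7 ± 5.40% with Vehicle (SD), and the median log2 fold change of all tested genes was -0.15 for Enalapril, -0.07 for Compound 1 and -0.18 for the combination, each against Vehicle. Median-of-ratios scaling brought these medians to 0.00, 0.00 and -0.01. Near-identical relatives can share reads: 5501 values of the whole table lay above 0 and under 0.0001 FPKM, too low for a whole fragment, and 2 of the members, Gsto2 and Gstm5, held such values. Levels of single paralogs of the Gsta, Gstm, Ugt2b and Sult1c groups, and of Ugt1a3, whose locus shares its later exons among several UGT1A transcripts, are therefore uncertain in how the reads were divided. Rat GST symbols have also been reassigned over time, and the table pairs them with no identifier.

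The kidney used a few members of each family heavily. Among the GST, Gsta1, an alpha-class enzyme that conjugates and reduces lipid peroxidation products, was the highest in Vehicle kidneys at 499 ± 129 FPKM (SD, n = 11), 21.9 ± 4.32% of the summed GST. Gstp1, the pi-class enzyme, followed at 400 ± 32.5 FPKM and Gstt3, of the theta class, at 392.5 ± 28.6 FPKM, and these neighbours differed by less than their spread. Gsta4, which clears 4-hydroxynonenal, had 169 ± 22.2 FPKM in Vehicle, Gsta5 had 156 ± 37.3 FPKM and Gsto1, the omega-class enzyme, had 154 ± 12.2 FPKM, again within each other's spread. Gstm1, Gstm2, Gsta2 and Gstt1 lay between 62.3 and 78.7 FPKM on average in Vehicle. The maleylacetoacetate isomerase Gstz1, the theta-class Gstt2 and the mitochondrial and peroxisomal Gstk1 lay between 41.4 and 47.9 FPKM, and Gsta3, Gstm4, Gsta6 and Gstm3 between 13.97 and 17.3 FPKM. Gsto2 was the lowest tested GST at 0.672 ± 0.503 FPKM.

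Sult1c2a carried 67.7 ± 5.58% of the summed SULT in Vehicle kidneys, at 304 ± 88.8 FPKM. The phenol sulfotransferase Sult1a1 had 44.5 ± 10.3 FPKM, Sult1b1, known for thyroid hormone sulfation, had 43.3 ± 7.21 FPKM, which differed by less than their spread, and Sult1c2 had 34.2 ± 8.62 FPKM, with ranges that overlapped those of both. Sult2b1, the cholesterol sulfotransferase, had a mean of 10.7 FPKM in Vehicle. Sult4a1, known from brain, and Sult5a1 averaged 2.26 and 1.97 FPKM. Among the UGT, Ugt1a3 took 77.1 ± 2.65% of the family sum at 83.8 ± 20.7 FPKM, and Ugt2b35 had 21.0 ± 6.89 FPKM. Ugt8, which glycosylates ceramide for myelin lipids rather than foreign compounds, had 2.54 ± 0.519 FPKM, and Ugt2a3 had 1.25 ± 0.537 FPKM. Summed over its members, the GST family had 2672 ± 272 FPKM with Enalapril, 2361 ± 276 with Compound 1, 2737 ± 200 with the combination and 2242 ± 206 with Vehicle. The SULT sums were 564 ± 66.5, 466 ± 87.0, 564 ± 101 and 442 ± 110 FPKM in the same groups, and the UGT sums were 117 ± 24.7, 105 ± 21.3, 113 ± 20.6 and 109 ± 27.4 FPKM, so the ranges of all 4 groups overlapped in each family.

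**Figure D1:**
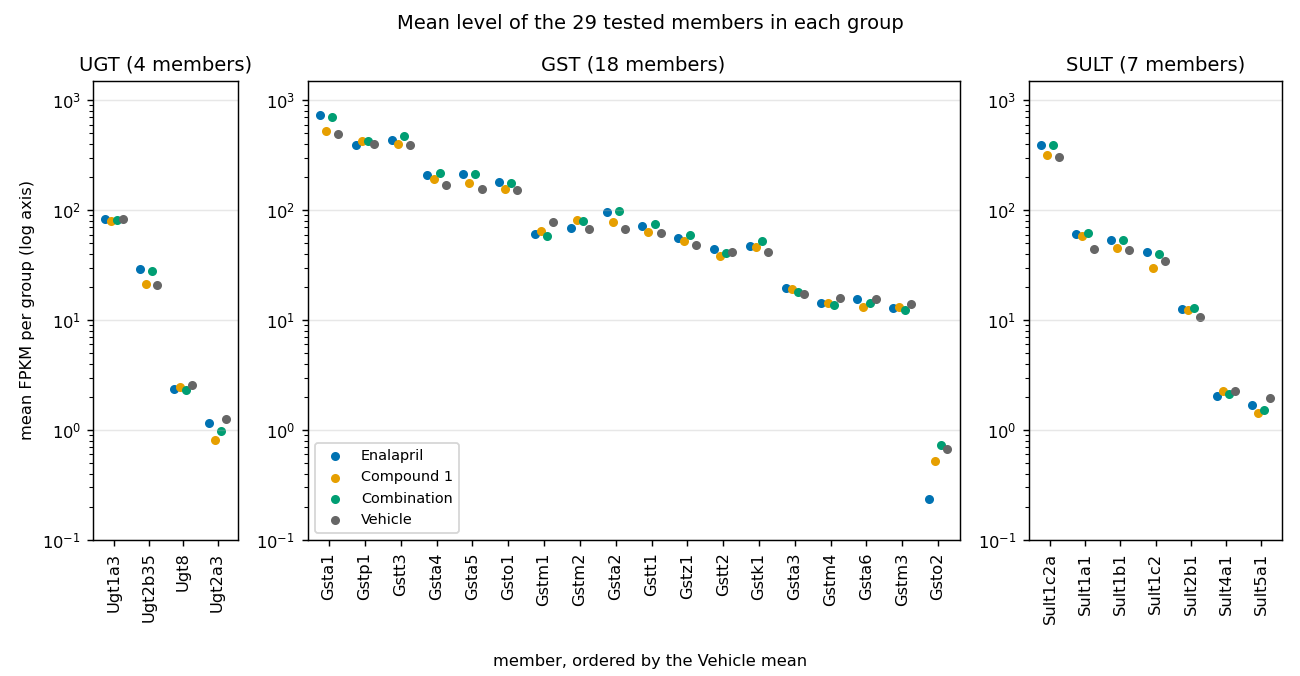
Mean FPKM of the 29 tested members (log axis) in Enalapril, Compound 1, combination and Vehicle kidneys, by family and ordered by the Vehicle mean. Gsta1, Gstp1 and Gstt3 lead the GST at 392.5 to 499 FPKM in Vehicle, Sult1c2a leads the SULT at 304 FPKM and Ugt1a3 the UGT at 83.8 FPKM, and the 4 groups lie close together for most members.

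Enalapril against Vehicle asks what blocking angiotensin II formation does to these transcripts in the diseased kidney. The alpha-class GST genes Gsta1, Gsta2, Gsta4 and Gsta5, and Sult1a1, Sult1b1 and Ugt2b35, were higher with Enalapril by up to 1.496-fold, Gstm1 was lower, and the leading UGT, Ugt1a3, was not called. In whole kidney tissue a change in the number of cells of a type and one in RNA per cell cannot be told apart. Of 29 tested members 11 rose (Gsta1, Gsta2, Gsta4, Gsta5, Gstk1, Gsto1, Gstt1, Gstt3, Sult1a1, Sult1b1 and Ugt2b35), where 3.57% of all tested genes rose, and 1 fell (Gstm1), where 26.6% fell. None was a DEG, against 0.490% of all genes called higher and 4.04% called lower; 16 of 29 members had an unadjusted p under 0.05, as had 42.8% of all genes. The median log2 fold change of the members was 0.16, against -0.15 over all tested genes. With median-of-ratios scaling 5 members were DEGs, all higher (Gsta1, Gsta2, Gsta5, Sult1a1 and Ugt2b35), where 1.52% of all genes were called higher.

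Gsta2, an alpha-class enzyme, ran from 69.1 to 123 FPKM with Enalapril (median 91.6), against 32.1 to 102 FPKM with Vehicle (median 66.9). All 9 Enalapril animals lay above the Vehicle median, yet the ranges overlapped, and the log2 fold change of 0.58 ± 0.17 (SE, limma adjusted p = 0.0118) stood just under the fold needed for a DEG. Gsta1 ran from 437 to 899 FPKM with Enalapril (median 776), against 199 to 689 FPKM with Vehicle (median 532), with 7 of 9 above the Vehicle median and overlapping ranges (log2 fold change 0.57 ± 0.18, adjusted p = 0.0192). Gsta5 changed by 0.48 ± 0.13 (adjusted p = 0.0109) and Gsta4 by 0.33 ± 0.08 (adjusted p = 0.00340, 9 of 9 animals above the Vehicle median). The other alpha-class members did not pass, with 0.15 ± 0.13 for Gsta3 (adjusted p = 0.362) and 0.01 ± 0.08 for Gsta6 (adjusted p = 0.906). Gsto1, Gstt1, Gstk1 and Gstt3 rose by 0.16 to 0.22 on the log2 scale, of which Gstk1 lost its call in 11 and Gstt3 in 5 of 20 fits that left out 1 animal. Gstm1, the leading mu-class enzyme, ran from 53.0 to 72.5 FPKM with Enalapril (median 59.5), against 54.1 to 101 FPKM with Vehicle (median 83.8). All 9 Enalapril animals were below the Vehicle median (-0.36 ± 0.10, adjusted p = 0.0102). With median-of-ratios scaling the change of Gstm1 was -0.21 and no longer passed (adjusted p = 0.144).

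Sult1a1 ran from 42.7 to 83.9 FPKM with Enalapril (median 57.8), against 19.1 to 59.2 FPKM with Vehicle (median 45.8), a log2 fold change of 0.48 ± 0.15 (adjusted p = 0.0209, 8 of 9 animals above the Vehicle median). Sult1b1 rose by 0.32 ± 0.10 (adjusted p = 0.0160). Sult1c2a, the most abundant sulfotransferase, ran from 273 to 436 FPKM with Enalapril and from 93.3 to 422 FPKM with Vehicle, and its difference of 0.43 ± 0.19 did not pass (adjusted p = 0.0819). Ugt2b35, of the steroid-conjugating UGT2B group, ran from 19.1 to 34.3 FPKM with Enalapril (median 31.4), against 5.75 to 31.6 FPKM with Vehicle (median 22.4). Its change of 0.57 ± 0.21 passed narrowly (adjusted p = 0.0457) and lost its call in 12 of 20 fits that left out 1 animal (adjusted p of 0.0241 to 0.0828). Ugt1a3, which had 83.9 ± 19.5 FPKM with Enalapril and 83.8 ± 20.7 FPKM with Vehicle, gave a 95% interval of -0.34 to 0.37 for its log2 fold change. Gsto2 had the largest fitted difference of all members (-1.56 ± 0.64, adjusted p = 0.0655), but 9 of its 44 values lay above 0 and under 0.0001 FPKM and 3 more at 0, so its levels are listed without being read as a change.

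**Figure D2:**
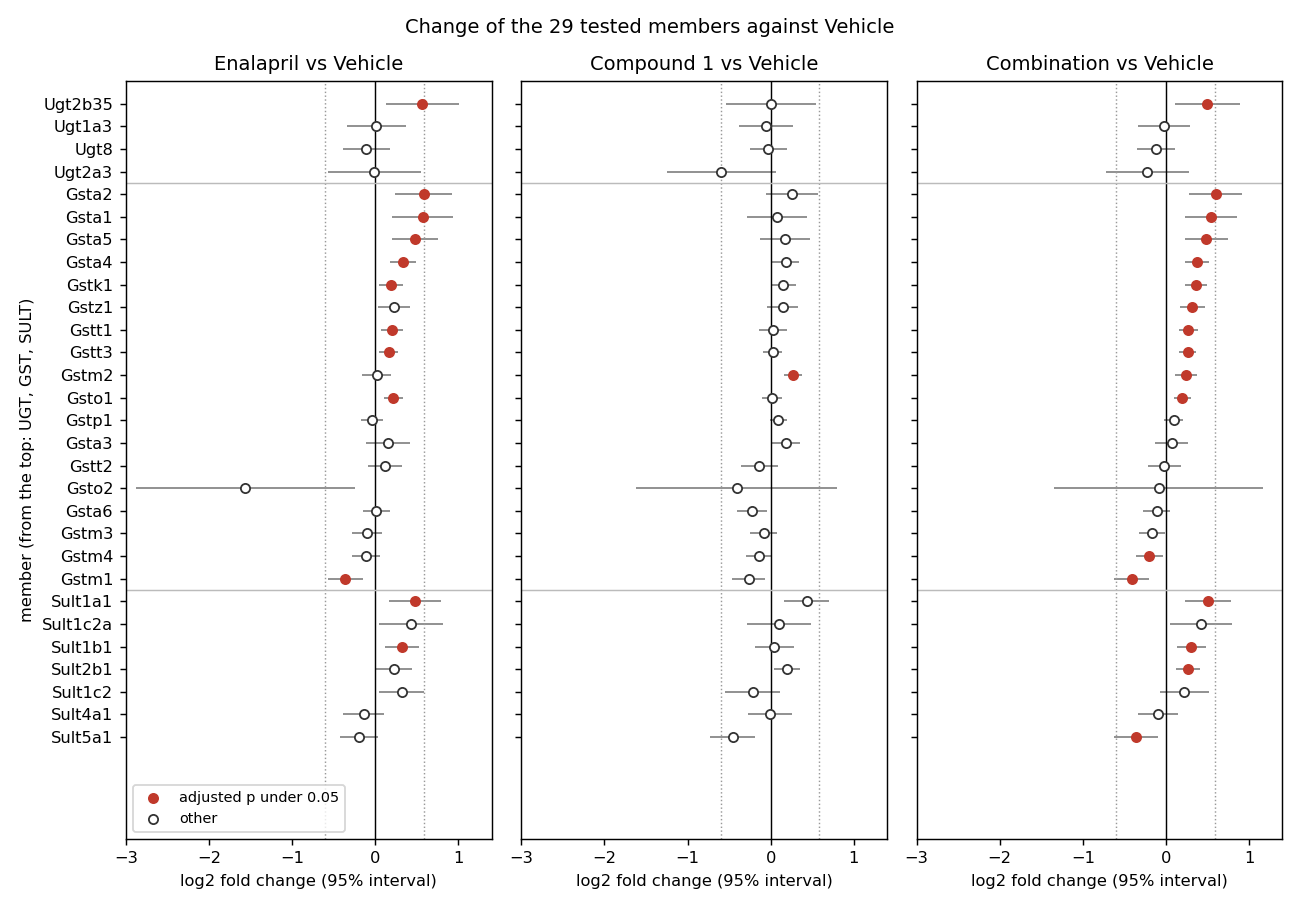
Log2 fold change of the 29 tested members against Vehicle with 95% intervals, UGT at the top, then GST and SULT, for Enalapril, Compound 1 and the combination. Filled points have an adjusted p under 0.05 (12 members with Enalapril, 1 with Compound 1, 17 with the combination), dotted lines mark the fold thresholds of a DEG, and only Gsta2 with the combination passes both.

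The combination against Vehicle called more members, with Gsta1, Gsta2, Gsta4, Gsta5, Sult1a1, Sult1b1 and Ugt2b35 again higher by up to 1.51-fold and Gstm1 again lower. Of 29 tested members 14 rose (Gsta1, Gsta2, Gsta4, Gsta5, Gstk1, Gstm2, Gsto1, Gstt1, Gstt3, Gstz1, Sult1a1, Sult1b1, Sult2b1 and Ugt2b35), where 6.38% of all tested genes rose, and 3 fell (Gstm1, Gstm4 and Sult5a1), where 39.3% fell. One member was a DEG, Gsta2, where 0.994% of all genes were called higher and 6.39% lower. The median log2 fold change of the members was 0.22, against -0.18 over all tested genes. With median-of-ratios scaling 6 members were DEGs, all higher (Gsta1, Gsta2, Gsta5, Sult1a1, Sult1c2a and Ugt2b35), where 2.50% of all genes were called higher. The 2 comparisons share the Vehicle animals, so they are not independent.

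Gsta2 ran from 68.8 to 128 FPKM with the combination (median 95.1), against 32.1 to 102 FPKM with Vehicle (median 66.9). All 12 combination animals lay above the Vehicle median, and 2 Vehicle animals, 1003 and 1004, stood below the rest of their group at 38.3 and 32.15 FPKM. The log2 fold change was 0.60 ± 0.15 (1.51-fold, adjusted p = 0.00323). Its adjusted p stayed under 0.05 without any 1 of the 23 animals, but the fold fell under 1.5 in 8 of these fits (without Vehicle animal 1003, 1004 or 1007, or combination animal 4001, 4004, 4006, 4008 or 4009), with log2 fold changes of 0.50 to 0.66 over all 23. Without both 1003 and 1004 the change was 0.41 (adjusted p = 0.00763). Gsta1 ran from 455 to 867 FPKM with the combination (median 740), against 199 to 689 FPKM with Vehicle (median 532), a change of 0.54 ± 0.15 (adjusted p = 0.00616, 10 of 12 above the Vehicle median). Gsta5 changed by 0.48 ± 0.13 (adjusted p = 0.00362), while Gsta3 at 0.07 ± 0.10 (adjusted p = 0.584) and Gsta6 at -0.11 ± 0.08 (adjusted p = 0.230) did not pass.

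Gsta4, Gstk1, Gstz1, Gstt1 and Gstt3 had smaller changes with smaller standard errors, each with all 12 combination animals above the Vehicle median. Gsta4 changed by 0.37 ± 0.07 (adjusted p = 0.000235), Gstk1 by 0.36 ± 0.06 (adjusted p = 0.000186) and Gstz1 by 0.32 ± 0.07 (adjusted p = 0.00133). Gstt3 ran from 410 to 513 FPKM with the combination (median 471), against 346 to 425 FPKM with Vehicle (median 395), with ranges that met only at their ends (0.26 ± 0.05, adjusted p = 0.000330). Gstp1, as abundant as Gstt3, had 428 ± 43.0 FPKM with the combination and 400 ± 32.5 FPKM with Vehicle and did not pass (adjusted p = 0.176). The mu class split. Gstm2 ran from 72.9 to 98.4 FPKM with the combination (median 78.0), against 60.4 to 92.5 FPKM with Vehicle (median 66.0), and rose by 0.24 ± 0.06 (adjusted p = 0.00357). Gstm1 ran from 46.8 to 81.1 FPKM with the combination (median 56.7), against 54.1 to 101 FPKM with Vehicle (median 83.8), and fell by 0.41 on the log2 scale (SE 0.10, adjusted p = 0.00249). Under median-of-ratios scaling Gstm1, Gstm4 and Sult5a1 kept negative differences of -0.24, -0.03 and -0.20, none of which passed, while Gstm2 stood at 0.41 (adjusted p = 0.000405). As deposited, Gstm4 lost its call in 10 of 23 fits that left out 1 animal. The 12 members that were not called with the combination had log2 fold changes of -0.23 to 0.42.

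Among the SULT, Sult1a1 ran from 50.02 to 99.96 FPKM with the combination (median 58.8), against 19.1 to 59.2 FPKM with Vehicle (median 45.8), with all 12 above the Vehicle median (0.50 ± 0.13, adjusted p = 0.00424). Sult1b1 rose by 0.31 ± 0.09 (adjusted p = 0.00560) and Sult2b1 by 0.27 ± 0.07 (adjusted p = 0.00401). Sult5a1, a low member at 1.52 ± 0.334 FPKM with the combination and 1.97 ± 0.358 FPKM with Vehicle, fell by 0.36 on the log2 scale (adjusted p = 0.0256). Ugt2b35 ran from 17.4 to 32.4 FPKM with the combination (median 29.5), against 5.75 to 31.6 FPKM with Vehicle (median 22.4). Its change of 0.50 ± 0.19 (adjusted p = 0.0365) lost its call in 8 of 23 fits that left out 1 animal and was 0.25 (adjusted p = 0.0794) without 1003 and 1004. Ugt1a3 had 81.2 ± 16.1 FPKM with the combination and 83.8 ± 20.7 FPKM with Vehicle (adjusted p = 0.902), and Ugt8 and Ugt2a3 did not pass either.

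Compound 1 against Vehicle called a single member. Gstm2, of the mu class, was the 1 member of 29 that rose, where 0.134% of all tested genes rose, and none fell, where 0.341% fell. None was a DEG, against 0.0445% of all genes called higher and 0.156% lower, nor was any with median-of-ratios scaling, where 0.0742% were called higher, while 9 of 29 members had an unadjusted p under 0.05, as had 13.3% of all genes. Gstm2 ran from 77.5 to 87.9 FPKM with Compound 1 (median 81.1), against 60.4 to 92.5 FPKM with Vehicle (median 66.0). All 12 Compound 1 animals lay above every Vehicle animal except 1004, which was above all of them (0.27 ± 0.05, adjusted p = 0.0142). Without animals 3102 to 3105 its change was 0.27 and did not pass (adjusted p = 0.0720). Sult1a1 had 58.7 ± 8.51 FPKM with Compound 1 and 44.5 ± 10.3 FPKM with Vehicle, with 11 of 12 above the Vehicle median, and did not pass over all genes (0.43 ± 0.13, adjusted p = 0.145). Gsta2 had 77.4 ± 13.4 FPKM with Compound 1 and 67.1 ± 20.4 FPKM with Vehicle (95% interval of the log2 fold change -0.06 to 0.57). Ugt2a3, at 0.815 ± 0.394 FPKM with Compound 1 and 1.25 ± 0.537 FPKM with Vehicle, had all 12 values below the Vehicle median and a wide interval (-1.25 to 0.06, adjusted p = 0.416). Sult5a1 was below the Vehicle median in 10 of 12 animals (-0.45 ± 0.13, adjusted p = 0.138), and Gstm1 in 12 of 12 (-0.26 ± 0.10, adjusted p = 0.256). Gsto2, with the estimates near 0 described above, had the largest fitted GST difference (-0.41 ± 0.59, adjusted p = 0.780).

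**Figure D3:**
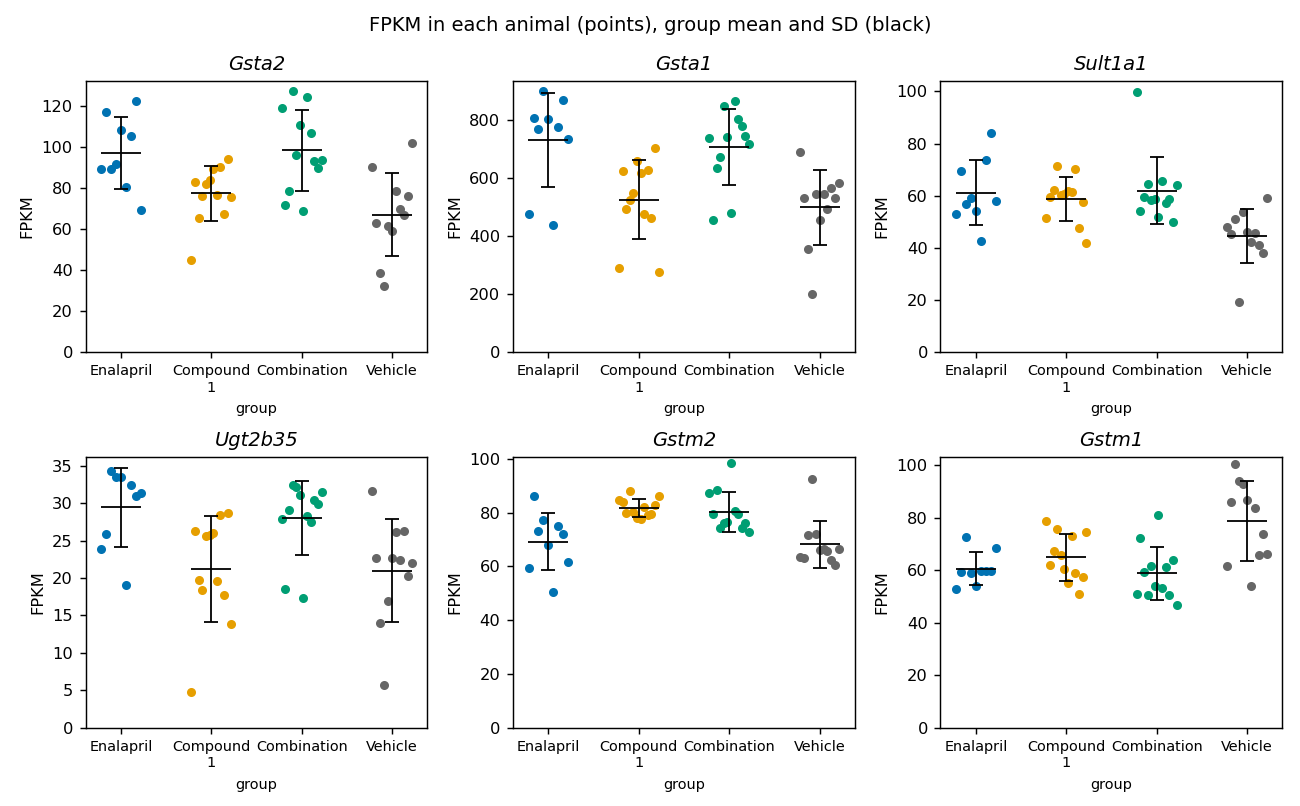
FPKM of Gsta2, Gsta1, Sult1a1, Ugt2b35, Gstm2 and Gstm1 in each animal of the Enalapril, Compound 1, combination and Vehicle groups, with group mean and SD in black. Gsta2 medians are 91.6, 79.4, 95.1 and 66.9 FPKM in that order, Gstm2 medians are 72.03, 81.1, 78.0 and 66.0 FPKM, and the groups overlap in every panel.

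Set against each drug alone, the combination called 0 members against Enalapril and 8 against Compound 1. Against Enalapril no member rose or fell in the limma fit of all 4 groups, and none was a DEG, where 0.00742% of all genes were called, with 4 of 29 at an unadjusted p under 0.05, as were 10.4% of all genes. The largest of these with usable values was Gstm2, which had 80.3 ± 7.51 FPKM with the combination and 69.2 ± 10.7 FPKM with Enalapril (0.22 ± 0.07, adjusted p = 0.211, 12 of 12 above the Enalapril median). The interval for Gsta2 in this comparison ran from -0.28 to 0.31 on the log2 scale and that for Ugt2b35 from -0.53 to 0.38. Against Compound 1, given there at a higher final dose, 8 members rose with the combination (Gsta1, Gsta4, Gstk1, Gsto1, Gstt1, Gstt3, Sult1b1 and Sult1c2), where 4.72% of all genes rose, and none was a DEG, where 2.33% were called. Sult1c2 had 39.6 ± 8.76 FPKM with the combination and 29.5 ± 6.87 FPKM with Compound 1 (0.44 ± 0.14, adjusted p = 0.0243), and Gsta1 had 707 ± 130 FPKM with the combination and 524 ± 136 FPKM with Compound 1 (0.46 ± 0.16, adjusted p = 0.0312). The interaction of Enalapril and Compound 1 was called for no member, where 0.00742% of all genes were called, with 2 of 29 members at an unadjusted p under 0.05, as were 4.29% of all genes. For Sult1a1 the interaction was -0.41 ± 0.18 (unadjusted p = 0.0249, adjusted p = 0.986). Because Compound 1 ended at a lower dose in the combination than alone, the interaction also holds a dose difference.

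The promoters of the alpha-class genes that rose and of the pi-class gene that did not are shown because NRF2, a textbook regulator of these enzymes, binds a short motif. RefSeq windows of 250 bases before to 50 after the start (build GRCr8, not the rn6 build of the table) matched 36 of 42 members by symbol, 26 of them tested. The antioxidant response element searched on both strands was TGACNNNGC, and capitals mark it. Gsta1 (chr9:31216483-31216782, minus strand), Gsta2 (chr8:88077043-88077342, minus) and Gstp1 (chr1:210769656-210769955, minus) held 1 each, and Gsta4 (chr8:87947015-87947314, plus) and Gsta5 (chr8:87988104-87988403, plus) held none. Counted in bases before the start, its first printed base lay at -30 in Gsta1, -36 in Gsta2 and 61 in Gstp1. The matches of Gsta1 and Gsta2 thus lay after the start and that of Gstp1 before it.
Gsta1: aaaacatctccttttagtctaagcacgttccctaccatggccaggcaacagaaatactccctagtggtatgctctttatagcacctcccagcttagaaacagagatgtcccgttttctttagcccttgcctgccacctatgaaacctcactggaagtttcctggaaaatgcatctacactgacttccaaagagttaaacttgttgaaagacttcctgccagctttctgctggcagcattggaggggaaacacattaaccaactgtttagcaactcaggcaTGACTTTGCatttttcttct
Gsta2: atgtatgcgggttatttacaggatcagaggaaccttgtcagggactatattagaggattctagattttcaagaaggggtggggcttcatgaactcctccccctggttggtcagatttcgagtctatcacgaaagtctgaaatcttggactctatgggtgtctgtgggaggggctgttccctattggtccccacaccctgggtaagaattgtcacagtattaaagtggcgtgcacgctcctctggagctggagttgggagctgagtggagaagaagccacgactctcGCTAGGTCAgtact
Gsta4: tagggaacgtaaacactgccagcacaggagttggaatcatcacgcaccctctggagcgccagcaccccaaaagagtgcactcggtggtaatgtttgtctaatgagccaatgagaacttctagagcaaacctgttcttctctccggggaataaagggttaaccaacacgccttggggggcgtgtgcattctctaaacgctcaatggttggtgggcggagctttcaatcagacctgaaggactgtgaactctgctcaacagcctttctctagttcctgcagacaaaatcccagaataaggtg
Gsta5: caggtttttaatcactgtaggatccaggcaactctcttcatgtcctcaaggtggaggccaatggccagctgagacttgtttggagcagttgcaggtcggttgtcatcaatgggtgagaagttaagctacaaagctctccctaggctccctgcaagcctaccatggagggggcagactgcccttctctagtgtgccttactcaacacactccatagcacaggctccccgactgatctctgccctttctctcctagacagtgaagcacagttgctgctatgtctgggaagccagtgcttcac
Gstp1: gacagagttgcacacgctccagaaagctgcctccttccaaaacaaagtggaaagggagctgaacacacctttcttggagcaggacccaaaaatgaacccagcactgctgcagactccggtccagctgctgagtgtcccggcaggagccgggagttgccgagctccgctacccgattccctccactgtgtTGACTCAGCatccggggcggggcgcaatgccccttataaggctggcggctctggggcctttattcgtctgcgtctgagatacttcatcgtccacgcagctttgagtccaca
The antioxidant element was found in 5 of 28 windows of tested members (Gsta1, Gsta2, Gsta3, Gstp1 and Gstz1) and in 12.1% of all 33469 windows. The core of the xenobiotic response element, GCGTG, not capitalised above, was found in 9 of 28 member windows and 29.7% of all windows. Of the printed windows, those of Gsta2, Gsta4 and Gstp1 held it. Members with the antioxidant element include some that rose (Gsta1, Gsta2, Gstz1 with the combination) and some that did not pass (Gsta3, Gstp1). Neither motif was in the windows of other members that rose (Gsta5, Gstk1, Gstm2, Gsto1, Gstt3, Sult1a1, Sult1b1 and Ugt2b35). Sequence outside these windows was not searched, so a missing motif does not show that a gene lacks one. Whether either motif had a part in the changes was not tested.

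Within groups, many members varied together from animal to animal. On deviations from the group means of log2(FPKM + 0.1) over 44 animals, 13 of the 28 other tested members followed Gsta1 upward and 2 downward (Pearson and Spearman both with adjusted p under 0.05 by permutation within groups, 100000 resamples, 57 relations in all). Gsta5 had r = 0.89 and rho = 0.77, Gsta4 r = 0.89 and rho = 0.76, Sult1c2a r = 0.88 and rho = 0.67, and Ugt2b35 r = 0.87 and rho = 0.71, each with a Pearson p of 1e-05, the smallest that the resamples can give (adjusted p = 3.56e-05). Without animals 1004 and 3105, the farthest from the median of Gsta1, these r were 0.832, 0.835, 0.814 and 0.831. Gstm1 ran against Gsta1 (r = -0.51, rho = -0.49, adjusted p = 0.000707 and 0.00192, r = -0.47 without the same animals), and for Gstp1 r was -0.16 (adjusted p = 0.373). By group, r of Gstm1 was 0.238 with Enalapril, -0.641 with Compound 1, -0.663 with the combination and -0.612 with Vehicle. The other member that followed Gsta1 downward was Gsto2 (r = -0.371, rho = -0.393), with the estimates near 0 described above. FPKM of one library share a total, so such relations are not independent of what the rest of the library holds. The share of all tested genes that follow Gsta1 was not computed, so the counts do not show a trait particular to the members. How reads were divided among the Gsta paralogs is uncertain, and its part in the relations of Gsta1 with Gsta4 and Gsta5 was not tested.

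Many members also followed markers of the proximal tubule, where the share of all tested genes that did so was not computed. A mean of 14 proximal tubule markers (among them Lrp2, Cubn, Slc34a1 and Slc22a6, none at 0 throughout a group) was 7.80 ± 0.091 with Enalapril, 7.51 ± 0.249 with Compound 1, 7.86 ± 0.104 with the combination and 7.50 ± 0.207 with Vehicle on the log2 scale, with summed marker FPKM of 4765 to 5966, 2805 to 5561, 5363 to 6522 and 3029 to 5095. Of these markers 10 rose with Enalapril and 11 with the combination, where 3.57% and 6.38% of all genes rose. None rose with Compound 1, and none fell in any of the 3 comparisons. With median-of-ratios scaling 12 rose with Enalapril and 13 with the combination, where 10.4% and 16.6% of all genes rose. Within groups, 14 of 29 members followed this mean upward and 3 downward, with r = 0.849 and rho = 0.776 for Sult1c2, r = 0.790 and rho = 0.727 for Ugt2b35, r = 0.786 and rho = 0.724 for Gsta2, and r = 0.683 and rho = 0.730 for Gsta1. The 3 that ran against it were Gstm1 (r = -0.694, rho = -0.757), Gstm3 (r = -0.501, rho = -0.411) and Gstm2 (r = -0.338, rho = -0.409), where the highest permutation p of these 7 was 0.00667 for r (adjusted p = 0.0119, Gstm2) and 0.00766 for rho (adjusted p = 0.0146, Gstm3). Without animals 3001 and 1003, the farthest from the median of the marker mean, r was 0.773, 0.677, 0.727 and 0.651 for the first 4 and -0.710, -0.378 and -0.393 for the other 3. With the marker mean as a covariate no member rose or fell with Enalapril, and Gstm2 alone rose with the combination (0.46, adjusted p = 0.00698). Gsta2 then stood at -0.05 with Enalapril and -0.15 with the combination, Gsta1 at 0.06 and -0.07, and Ugt2b35 at -0.06 and -0.27. Sult1a1, which did not follow the marker mean within groups (r = 0.235, adjusted p = 0.205), stood at 0.311 and 0.325, neither of which passed (adjusted p = 0.524 and 0.376). Gstk1 stood at 0.074 and 0.233 and did not pass either. In that fit only 1 gene of the whole table was a DEG with Enalapril and 11 with the combination. Without the covariate 66 genes were called higher and 545 lower with Enalapril, and 134 higher and 861 lower with the combination. The marker mean itself was higher in both groups than in Vehicle, so this fit cannot separate treatment from marker level. For Compound 1, whose marker mean was near that of Vehicle, Gstm2 stood at 0.27 (adjusted p = 0.00225) with the covariate and Gstm1 at -0.26 (adjusted p = 0.0482). Other cell markers moved too: of 7 immune cell markers 6 fell with Enalapril and 7 with the combination, and of 6 fibroblast and smooth muscle markers 4 fell with each. The share of all genes that fell was 26.6% and 39.3%. With median-of-ratios scaling 5 and 7 immune markers fell, where 9.66% and 15.3% of all genes fell. Of the fibroblast and smooth muscle markers 4 then fell with Enalapril and 2 passed with the combination. No marker of either list was at 0 throughout a group. Summed immune marker FPKM were 452 to 1060 with Enalapril, 534 to 990 with the combination and 664 to 1640 with Vehicle, and summed fibroblast and smooth muscle marker FPKM were 151 to 239, 172 to 261 and 207 to 368 in the same order. Their part in the members' changes was not tested.

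**Figure D4:**
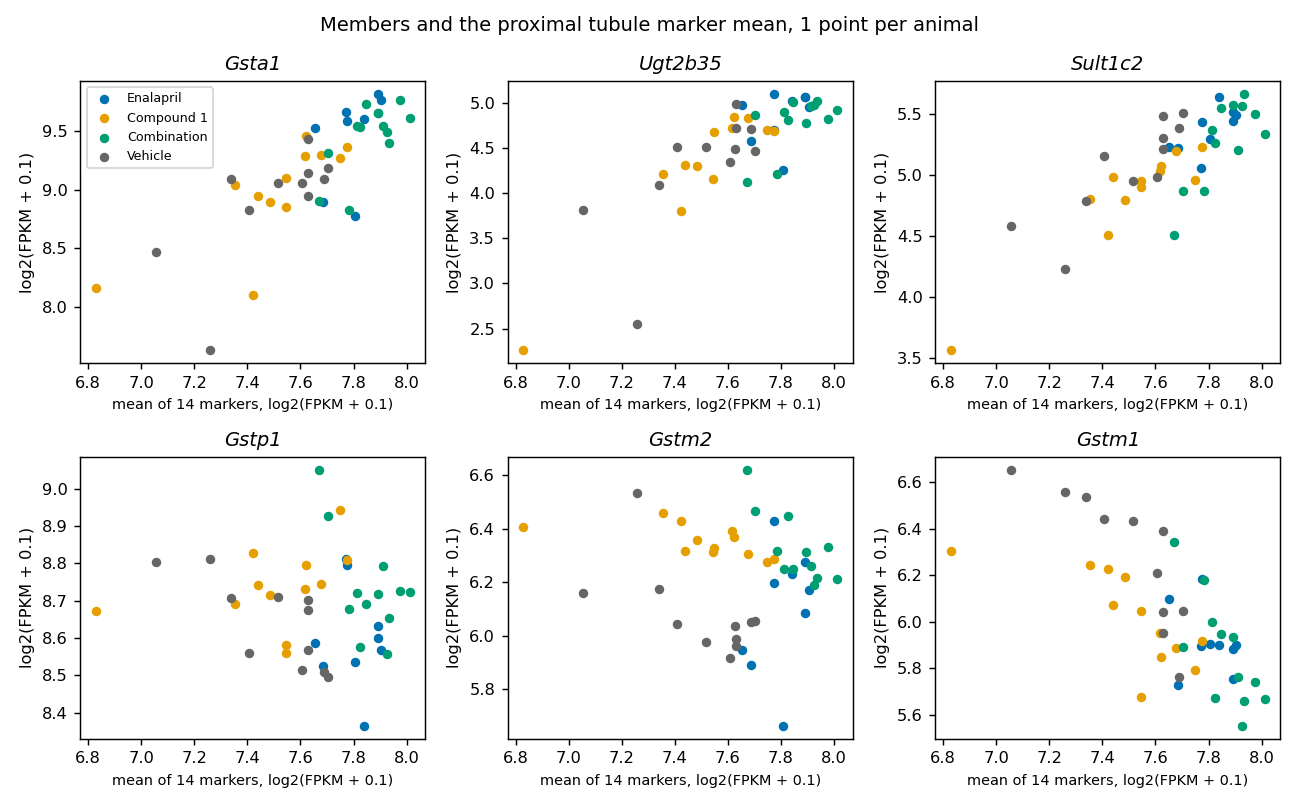
Log2(FPKM + 0.1) of Gsta1, Ugt2b35, Sult1c2, Gstp1, Gstm2 and Gstm1 against the mean of the 14 proximal tubule markers, 1 point per animal, coloured by group. Gsta1, Ugt2b35 and Sult1c2 climb with the marker mean in every group and Gstm1 falls with it, and for Gstm2 r is 0.358 with Enalapril, -0.608 with Compound 1, -0.777 with the combination and -0.628 with Vehicle.

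A few animals set the low ends of the ranges. Vehicle animal 1004 had the lowest group value for 14 of 29 tested members, among them Gsta1, Gsta2, Gsta5, Sult1a1, Sult1c2a, Ugt1a3 and Ugt2b35, and the highest for 5, among them Gstp1, Gstm2 and Gstm3. Compound 1 animal 3001 was lowest for 12 members, combination animal 4007 for 12 and highest for 4 (Gstp1, Gsto1, Gstm2 and Gstm1), and Enalapril animal 2010 was lowest for 11. Leaving out Vehicle animals 1003 and 1004 kept 10 of the 12 calls with Enalapril and 15 of the 17 with the combination, with Gsta1 at 0.38 with Enalapril and 0.35 with the combination.

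The 13 members under the filter were low in every group. Ugt3a2 and Sult6b1 were listed at 0 in all 44 animals, Gstt4 was above 0 in 1 animal and Gstm6l in 2. The others, Sult2a2, Sult1c3, Sult1d1, Sult1e1, Ugt2b10, Ugt2b15, Gstm3l, Gstm5 and Gstm6, had FPKM above 0 in 10 to 44 animals, with highest single values between 0.0126 FPKM (Gstm5) and 2.51 FPKM (Ugt2b15). In 27 two-sided permutation tests of mean FPKM (exact for Enalapril, 100000 resamples otherwise) none passed after adjustment. The smallest p was for Ugt2b10, at 0.140 ± 0.143 FPKM with Compound 1 and 0.0280 ± 0.0622 FPKM with Vehicle (permutation p = 0.0200, adjusted p = 0.480, 11 of 12 above the Vehicle median). Next was Sult1e1, the estrogen sulfotransferase, at 0.259 ± 0.261 FPKM with Compound 1 and 0.0768 ± 0.127 FPKM with Vehicle (permutation p = 0.0377, adjusted p = 0.480). The mean of 6 hepatocyte markers was 2.83 ± 0.826 with Compound 1 and 2.11 ± 0.940 with Vehicle on the log2 scale (summed FPKM 31.1 to 274.6 and 23.7 to 158.4, none of the 6 at 0 throughout a group), and its part in these low values was not tested.

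Genes that work around the members, grouped by pathway, were read from the same fits, and each count stands beside the background given above (3.57% of all genes rose and 26.6% fell with Enalapril, 6.38% and 39.3% with the combination). Since scaling moves these lists as a whole, each is also given under median-of-ratios scaling, where 10.4% of all genes rose and 9.66% fell with Enalapril, and 16.6% rose and 15.3% fell with the combination. Of 5 tested genes that supply glutathione 3 rose and 1 fell with Enalapril, and again with the combination, against 3 and 0 in each under median-of-ratios scaling. Gclc, the catalytic subunit of the enzyme that limits glutathione synthesis, averaged 513 FPKM with Enalapril, 572 FPKM with the combination and 350 ± 105 FPKM with Vehicle, and was a DEG in both (0.61 ± 0.15, adjusted p = 0.00562, with Enalapril and 0.76 ± 0.15, adjusted p = 0.000381, with the combination) and under both scalings. Of 10 tested genes of the mercapturate pathway, which trims glutathione conjugates, 6 rose and 1 fell with Enalapril, and 7 rose and 1 fell with the combination, against 8 and 0 in each under median-of-ratios scaling. The aminoacylase Acy1 changed by 0.57 ± 0.07 with the combination (adjusted p = 7.43e-06), and no gene of this list was a DEG there, against 5 higher with median-of-ratios scaling (Acy1, Acy3, Anpep, Ggt1 and Kyat3). Ggt7, the gene of the list that fell, was a DEG with Enalapril at 0.936 FPKM on average, against 1.49 FPKM with Vehicle (-0.61 ± 0.21, adjusted p = 0.0296), but did not pass with median-of-ratios scaling (-0.47, adjusted p = 0.109). Of 6 membrane relatives of the GST 1 rose (Mgst3) and 3 fell in each comparison as deposited, while with median-of-ratios scaling 2 rose (Mgst1 and Mgst3) and none fell in either. Ltc4s, the leukotriene C4 synthase of immune cells, was a DEG with Enalapril as deposited (-0.64 ± 0.24, adjusted p = 0.0461) and did not pass with median-of-ratios scaling (-0.50, adjusted p = 0.158).

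Of 5 genes for UDP-glucuronic acid supply and glucuronide cleavage none rose and 2 fell in each of these comparisons (Gusb, the beta-glucuronidase, and the nucleotide sugar transporter Slc35d2), a share of falls like that of all genes with the combination. With median-of-ratios scaling 2 rose (Slc35d1 and Ugp2) and 1 fell (Gusb) with Enalapril, and 1 rose (Slc35d1) and 2 fell with the combination. Slc35d2 was a DEG with the combination, at 2.83 FPKM on average against 4.66 ± 0.770 FPKM with Vehicle (-0.72 ± 0.12, adjusted p = 6.94e-05), and with median-of-ratios scaling it still fell but was no DEG (-0.55, adjusted p = 0.000403). Of 9 genes for PAPS supply and sulfate handling 2 rose and 1 fell with Enalapril and 3 rose with the combination, among them the PAPS synthase Papss2 (0.27 and 0.30) and the sulfate transporter Slc26a1 (0.32 and 0.35), against 3 and 5 that rose and none that fell with median-of-ratios scaling. Of 7 conjugate exporters 1 rose (Abcg2) in each and 2 fell with Enalapril and 3 with the combination, against none and 3 that fell with median-of-ratios scaling. Abcc2, the apical exporter of glucuronides and glutathione conjugates, was the list's only gene to fall with Compound 1 (-0.55 ± 0.09, adjusted p = 0.00234). None of the PAPS and exporter genes was a DEG in these comparisons.

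Of 14 other phase II enzymes 7 rose with Enalapril, and 6 rose and 1 fell with the combination, against 9 and 0 in each under median-of-ratios scaling. The one that fell, Nnmt, which methylates nicotinamide, was a DEG with the combination (-0.68 ± 0.24, adjusted p = 0.0246) but did not pass with median-of-ratios scaling (-0.52, adjusted p = 0.0932). Of 14 regulators 2 rose (Ppara and Hnf4a) and 3 fell in each comparison, with median log2 fold changes of -0.17 with Enalapril and -0.11 with the combination. With median-of-ratios scaling 3 rose and none fell with Enalapril, and 4 rose and 2 fell with the combination. The nuclear receptor Ppara was a DEG with the combination, at 6.64 FPKM on average against 4.20 ± 0.624 FPKM with Vehicle (0.63 ± 0.12, adjusted p = 0.000240), and Hnf4a, a factor of the tubular epithelium, changed by 0.35. Those that fell with the combination were Ahr, the receptor that binds the xenobiotic element (-0.45 ± 0.11, adjusted p = 0.00320), Mafg, a partner of NRF2 (-0.37 ± 0.09, adjusted p = 0.00192), and Nfe2l2, which encodes NRF2 (-0.30 ± 0.09, adjusted p = 0.00855). Nfe2l2 did not pass with median-of-ratios scaling (-0.12, adjusted p = 0.148). Targets of NRF2 moved both ways: of 13 tested 4 rose and 2 fell with Enalapril and 3 rose and 3 fell with the combination, against 4 and 1, and 5 and 2, under median-of-ratios scaling. Osgin1 (0.69 ± 0.16, adjusted p = 0.00124) and Gclc were higher as DEGs with the combination, and the heme oxygenase Hmox1 (-0.66 ± 0.12, adjusted p = 0.000266) and the carbonyl reductase Cbr1 (-0.64 ± 0.16, adjusted p = 0.00255) lower. With median-of-ratios scaling Hmox1 (-0.48, adjusted p = 0.00125) and Cbr1 (-0.47, adjusted p = 0.0229) still fell but were no DEGs. The median log2 fold change of these 13 with the combination was -0.01 as deposited and 0.17 with median-of-ratios scaling. With Compound 1 the lists other than conjugate export held no gene that rose or fell.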

How the data were processed

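Kidney RNA of 44 rats, 1 library each, was sequenced, and the deposited values are FPKM that the authors computed on rat build rn6, as the submitters' processing notes name it; for the aligner and counter the sources used here give no name. The authors tested raw counts, which are not used here. FPKM were turned into log2(FPKM + 0.1), entries exceeding 1 FPKM in 9 or more animals were kept, and limma 3.58.1 (R 4.3.3, mean-variance trend) was fitted on the 2 groups compared, or on all 4 for the combination against each drug and the interaction, with Benjamini-Hochberg adjustment over 13482 entries. Depth is unknown, so no counting error can be given, and p-values measure the spread between animals. The file holds 2 empty columns, left out. The fit was tried on the real values, shuffled between animals after group differences were removed, with known changes added. The outcome of that trial is not given here. Members and gene lists were chosen with earlier results of these data known. Values are given for members called, the 4 highest of each family in Vehicle and the largest change per family and comparison; Gsta5, Gstk1, Gstm1, Gstm2, Gstm4, Gsto1, Gstt1, Gstz1 and other members outside this rule, and the relations across animals, were chosen after values were seen. Promoters are RefSeq windows (GRCr8). Correlations and permutations used scipy 1.17.1. One planned motif and 1 regulator are not reported here. Alternatives were other pseudocounts, filters, scalings, sample weights, marker covariates and left-out animals.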

Additional observations from a re-analysis of the deposited data

Results flagged for a closer look

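Among 29 tested members, looked at in the 9 Enalapril animals only since the other groups were larger than 10, 2 had an animal standing apart from its group, where chance flags about 1 group in 20. Gstk1 was 55.6 FPKM in Enalapril animal 2005, against 41.1 to 48.4 FPKM in the others. Sult4a1 was 2.85 FPKM in Enalapril animal 2001, against 1.70 to 2.22 FPKM in the others.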

How the results depend on the processing

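The count of members called as DEGs depended on scaling and on the fold threshold. With Enalapril it was 0 as deposited, 5 with median-of-ratios scaling, 3 with quantile normalization, 3 without mitochondrial transcripts, 12 with no fold threshold, 1 without animals 2103 and 3102 to 3105, and 0 to 4 when each animal was left out. With the combination it was 1 as deposited, 6 with median-of-ratios scaling, 2 with quantile normalization, 17 with no fold threshold, 0 with sample weights, with the proximal tubule or the inner medulla covariate or without Vehicle animals 1003 and 1004, and 0 to 2 when each animal was left out. With Compound 1 it was 0, and 1 with no fold threshold. For the combination against Compound 1 it was 0, 1 with median-of-ratios scaling and 8 with no fold threshold. Gsta2 with the combination turned to -0.15 with the proximal tubule covariate. On adjusted p alone, the 12 calls with Enalapril became 0 with the inner medulla covariate and 4 without the 6 animals listed last, 3 of them from the Enalapril group, while the members' median log2 fold change was 0.16 and 0.17, against 0.16 as deposited; each animal left out gave 8 to 13 higher and 1 or 2 lower, and with the combination 13 to 15 higher and 2 to 4 lower. The causes were not tested. No paired analysis was possible because animal numbers are not shared between groups.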
